A study of Mus musculus with 4 samples.

Results

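Interferon response genes are the genes that carry, sense or answer an interferon signal, and 41 of them, out of 21952 genes in the annotation used, were followed here by the accessibility of their chromatin in mouse inguinal white adipose tissue (iWAT). The list was built around Ifi27l2a, which encodes a small interferon-inducible membrane protein of the Ifi27 family, because its accessibility was lower in adipocytes after cold or drug treatment. The other members were added as genes of the same pathway: 4 receptor subunits, 4 transcription factors, 6 sensors of RNA and DNA or their partners, 5 genes of the OAS family, 4 of the IFIT family, 12 other antiviral effectors, the 3 Ifi27 genes and 3 guanylate-binding proteins. A member's accessibility is the number of peak entries over its gene body and 2000 bases upstream, and 40 of the 41 had at least 1 peak; Ifi44 had none and has no value.

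The data are single-nucleus ATAC-seq profiles, which mark the open chromatin of 1 nucleus at a time, for 32552 nuclei of 21 male C57BL/6J mice aged 8 weeks. There were 7 groups of 3 mice. Mice at room temperature (22 °C) formed day0RT, mice kept at 6.5 °C for 1, 3 or 7 days formed day1C, day3C and day7C, and mice given CL-316,243, an agonist of the β3-adrenergic receptor, at 1 mg/kg for 1, 3 or 7 days formed day1CL, day3CL and day7CL. The day0RT mice were the only untreated group, so every comparison with day 0 shares them. The mouse and the cell type of each nucleus (12 types) are those of the authors' annotation.

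Each mouse gave 1111 to 2021 nuclei, and nuclei were summed per mouse and cell type into libraries of at least 10 nuclei. Total counts per library ran from 48870 to 3354467 in adipocytes (white and beige together), 43731 to 1468398 in B cells, 10454 to 373049 in CD4 T cells, 28678 to 617144 in CD8 T cells and 18975 to 216431 in macrophages. The day1CL replicate 1 library held 29 adipocyte nuclei, the day1CL replicate 3 libraries 66 B cell and 16 CD4 T cell nuclei, and day3CL replicate 2 had too few CD4 and CD8 T cell nuclei to be used. Some 4218 barcode sequences occurred in more than 1 mouse (8739 nuclei), always between mice of the same treatment and replicate number on different days. The 2 nuclei of such a pair had the same cell type in 21.5% of 4824 pairs, beside 20.8% computed from the cell type shares of the mice. Marker genes bore out the labels of adipocytes, B and T cells, VECs (vascular endothelial cells), macrophages, dendritic cells and APC1 (adipocyte progenitor cells, with APC2 as the second such label). The cluster labelled VSMC (vascular smooth muscle cells) went against its label: the smooth muscle list (Acta2, Myh11, Notch3, Rgs5) summed to 139 CPM there and 515 CPM in APC2. The beige list (Ucp1, Cidea, Ppargc1b) summed to 693 CPM there and 767 CPM in beige adipocytes. The adipocyte list (Adipoq, Plin1, Lipe, Cidec, Pparg) summed to only 292 CPM there, against 1598 CPM in beige adipocytes. The cluster is described in the paper by Myod1, Myog, Myf5, Myh4 and Mylk4, which are outside these lists. It is called the VSMC-labelled cluster below.

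Type I interferons are secreted when a cell detects foreign nucleic acid, and type II interferon mainly by activated T and NK cells. Type I interferons bind the receptor of Ifnar1 and Ifnar2, type II interferon that of Ifngr1 and Ifngr2, and Janus kinases at both receptors pass the signal on to STAT proteins. STAT2 and IRF9 act at the interferon-stimulated response element (ISRE), and the GAS element is the other short sequence known from promoters of interferon response genes. In adipose tissue, immune and stromal cells as well as adipocytes carry these receptors.

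The letters of both elements were searched in the promoters of the members, because the list was gathered as genes of 1 pathway and not by position. RefSeq promoters (GRCm38.p6) run from 250 bases before to 50 bases after a gene start and were at hand for 30 members. The other 11 could not be searched, and all 3 Ifi27 genes, Ifi27l2a included, were among them. The ISRE core was written as TTTC, any 2 bases, TTTC, and the GAS letters as TTC, any 3 bases, GAA, on both strands. An ISRE core stood in the promoters of 15 of the 30 members (50%) and of 3.99% of 27025 genes. GAS letters stood in 9 members (30%) and in 9.55% of genes. By role, all 3 guanylate-binding proteins (Gbp2, Gbp3, Gbp7), 3 of 4 IFIT genes and 3 of 4 sensors held an ISRE core. So did 2 of 4 OAS genes, 3 of 7 other effectors, 1 of 4 transcription factors (Stat2) and 0 of 4 receptor genes. Both kinds of letters occurred in 4 members, with a shared base in 1 promoter, and neither in 10. A match is a description of letters and not evidence of binding.

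Stretches of 60 bases that hold the letters (in capitals; the core may repeat with overlap) are shown for genes the results come back to. Each is written 5′ to 3′ on the strand of its gene, so a core on the other strand reads GAAA, any 2 bases, GAAA. Isg15 (chr4:156200849-156200908, minus strand) has 3 overlapping cores.
Isg15: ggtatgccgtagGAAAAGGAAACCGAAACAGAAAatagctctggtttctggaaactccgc
Ifit1 (chr19:34640773-34640832, plus strand) has 2 separate cores.
Ifit1: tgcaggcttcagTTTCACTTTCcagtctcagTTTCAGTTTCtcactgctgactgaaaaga
The neighbouring copies Ifit3 (chr19:34583361-34583420, plus strand) and Ifit3b (chr19:34607757-34607816, plus strand) were identical over the 60 bases shown, and over 201 of 268 aligned promoter bases (75%), so their counts are uncertain where a read fits both.
Ifit3: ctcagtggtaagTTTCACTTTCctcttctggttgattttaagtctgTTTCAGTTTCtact
Ifit3b: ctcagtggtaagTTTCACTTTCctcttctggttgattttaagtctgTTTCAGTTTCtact
Oas3 (chr5:120777687-120777746, minus strand) and Bst2 (chr8:71537555-71537614, minus strand) have 1 and 2 cores.
Oas3: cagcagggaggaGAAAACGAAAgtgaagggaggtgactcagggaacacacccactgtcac
Bst2: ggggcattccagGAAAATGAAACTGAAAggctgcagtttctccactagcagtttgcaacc
Gbp2 (chr3:142620592-142620651, plus strand) and Stat2 (chr10:128270264-128270323, plus strand) have 1 core each.
Gbp2: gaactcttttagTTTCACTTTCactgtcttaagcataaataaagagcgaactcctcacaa
Stat2: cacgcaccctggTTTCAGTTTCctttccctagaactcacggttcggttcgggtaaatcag
Irf1 (chr11:53769912-53769971, plus strand) has no ISRE core in this window and shows 1 GAS match.
Irf1: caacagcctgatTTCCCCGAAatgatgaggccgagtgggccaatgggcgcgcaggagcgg

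The peaks held the same letters mainly at the gene starts. The 40 members had 149 peaks, 60 of them within 2000 bases of a gene start, and 38 members had such a promoter peak (Ifngr1 and Ifi27l2b had none). An ISRE core lay in 28 of the 60 promoter peaks (46.7%, median length 861.5 bases) and in 5 of the 89 other peaks (5.62%, median 415 bases), beside 7.69% of all 189598 peaks (median 393 bases). Peak lengths differ between these sets, and the shares are not matched for length.

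Across cell types the summed accessibility of the members had its highest means in CD4 and CD8 T cells and its lowest in adipocytes and the VSMC-labelled cluster. Their summed level, in CPM (a gene's count divided by the library's total gene count, times 1e6), was 2288 ± 146 CPM (SD, n = 20) in CD4 T cells and 2270 ± 102 CPM (n = 20) in CD8 T cells. T cells outside CD4 and CD8 had 2139 ± 159 CPM (n = 20). The summed level was 2097 ± 249 CPM (n = 21) in macrophages, 2034 ± 228 CPM (n = 17) in dendritic cells, 2021 ± 277 CPM (n = 15) in VECs, 1968 ± 348 CPM (n = 20) in APC1 and 1890 ± 153 CPM (n = 21) in B cells. APC2 had 1617 ± 155 CPM (n = 19), white adipocytes 1533 ± 138 CPM (n = 21), beige adipocytes 1319 ± 193 CPM (n = 19) and the VSMC-labelled cluster 733 ± 173 CPM (n = 10). The types between macrophages and B cells overlapped in their spread, whereas the highest white adipocyte library (2031 CPM) passed only the lowest CD4 T cell library (1938 CPM). Of the 40 members, 29 had a lower mean in adipocytes than in CD4 T cells (72.5%, beside 50.2% of 17197 genes with a peak) and 31 a lower mean than in macrophages (77.5%, beside 55.1%). Only 5 were lower in adipocytes than in the VSMC-labelled cluster (12.5%, beside 46.5%). Cell types were clustered on these same accessibilities and differ in depth (3328 entries per nucleus at the median in adipocytes, 1085 in CD4 T cells), so their levels are given as a description.

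**Figure D1:**
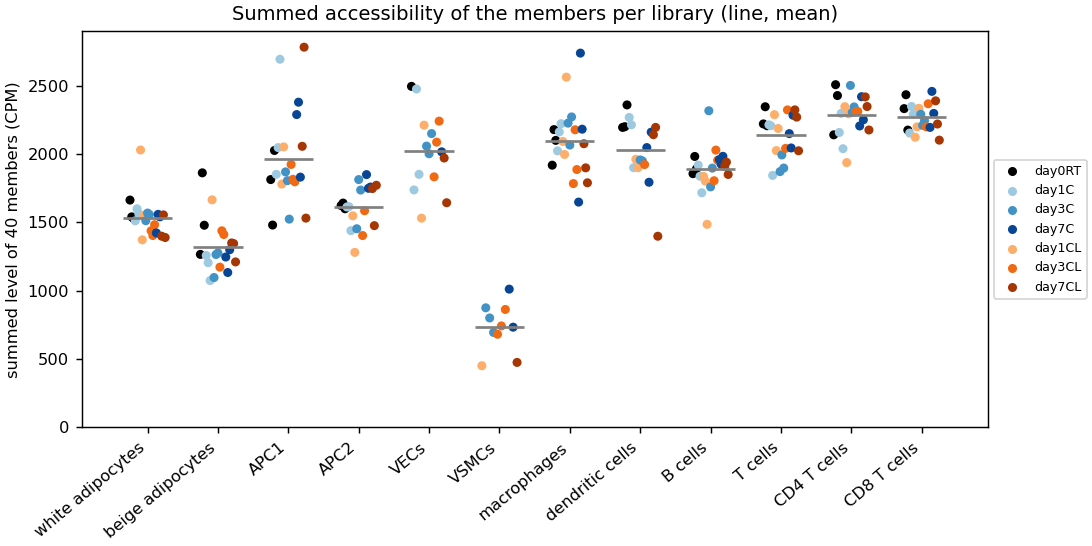
Summed accessibility of the 40 members with a peak in each library (y axis, CPM; points, 1 mouse coloured by group; grey line, mean) for the 12 annotated cell types (x axis). CD4 and CD8 T cell libraries lie between 1938 and 2509 CPM, beige adipocyte libraries between 1075 and 1863 CPM and the VSMC-labelled cluster between 451 and 1012 CPM. The VSMC-labelled cluster has no day0RT or day1C library of 10 or more nuclei.

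The roles did not share 1 order of cell types. The OAS genes summed to 34.4 ± 17.8 CPM in adipocytes (16.9 to 102 CPM) and 246 ± 35.7 CPM in CD8 T cells (201 to 327 CPM), and the IFIT genes, whose products bind viral RNA, to 63.6 ± 12.8 CPM in adipocytes (35.03 to 87.8 CPM) and 238 ± 39.6 CPM in CD4 T cells (180 to 340 CPM), in both cases without overlap. The sensors of RNA and DNA summed to 302 ± 32.5 CPM in adipocytes and 311 ± 58.3 CPM in CD4 T cells, a difference within the spread. The Ifi27 genes summed to 117 ± 31.2 CPM in adipocytes and 114 ± 32.1 CPM in CD4 T cells, again within the spread. Receptor genes were highest in macrophages (505 ± 104 CPM) and had 330 ± 55.3 CPM in adipocytes.

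The receptor genes differed from each other in where they were open. Ifnar1, a chain of the type I receptor, had 60.3 ± 9.5 CPM in adipocytes (SD, n = 21) and 117.9 ± 39.5 CPM in CD4 T cells (n = 20). Its partner Ifnar2 was highest in VECs (161.0 ± 79.1 CPM, n = 15) and had 101.5 ± 25.6 CPM in adipocytes. Ifngr1, the ligand-binding chain of the type II receptor, was highest in white adipocytes (84.9 CPM) and low in B cells (15.1 ± 6.0 CPM, n = 21). Ifngr2, its signalling chain, had its highest levels in dendritic cells (216.3 ± 59.7 CPM, n = 17) and macrophages (207.7 ± 40.9 CPM, n = 21) and 88.7 ± 21.1 CPM in adipocytes. The adipocyte libraries of Ifngr2 ran from 53.2 to 163.7 CPM and those of macrophages from 138.8 to 292.3 CPM, so the 2 types overlapped only at their ends.

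Among the transcription factors, Irf9, the DNA-binding part of the type I interferon complex, had the highest level per length of the members in B cells, CD4 T cells, macrophages and APC1. Its level, counted from 1 promoter peak shared with Rnf31 (chr14:55603527-55604674), was 91.7 ± 24.4 CPM per kb of counted peak in CD4 T cells, where libraries ran from 77.7 through a median of 99.6 to 191.3 CPM. It was 72.8 ± 15.6 CPM per kb in B cells, 67.6 ± 37.4 in macrophages, 73.9 ± 76.9 in APC1 and 31.7 ± 6.4 in adipocytes, where libraries ran from 26.7 through 34.9 to 61.4 CPM. Irf1, an early response factor, led in VECs at 65.6 ± 49.2 CPM per kb, with libraries from 0.0 through 115.8 to 372.5 CPM. It had 54.2 ± 6.7 CPM per kb in B cells and 25.7 ± 7.7 in adipocytes. Irf7, which amplifies type I interferon, was highest in CD8 T cells (80.2 ± 27.5 CPM, n = 20) and had 33.97 ± 10.1 CPM in adipocytes. Stat2 differed less, from 31.2 CPM in the VSMC-labelled cluster to 96.1 ± 92.0 CPM in VECs.

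The antiviral effectors and sensors held the sharpest differences between cell types. Oas3, which makes the 2-5A messenger on meeting double-stranded RNA, had 123.9 ± 25.0 CPM in CD8 T cells and 96.4 ± 20.2 CPM in CD4 T cells (both n = 20). Its adipocyte libraries ran from 0.0 to 4.4 CPM and its B cell libraries from 0.0 to 24.7 CPM, all below the lowest CD4 T cell library (49.0 CPM). Oasl1, which limits translation of Irf7, was highest in B cells (102.9 ± 21.8 CPM) and had 18.0 ± 7.7 CPM in adipocytes, without overlap (lowest B cell library 45.7 CPM, highest adipocyte library 40.9 CPM). Ifit2, which binds viral RNA, had 127.5 ± 24.6 CPM in CD4 T cells and 16.2 ± 6.9 CPM in adipocytes, again without overlap (lowest CD4 library 87.2 CPM, highest adipocyte library 27.3 CPM). Bst2, the tethering factor that holds budding virus at the membrane, was highest in macrophages (76.9 ± 35.5 CPM, libraries from 32.3 through 70.5 to 156.4 CPM). It stood second per length there (64.2 ± 29.6 CPM per kb), in APC1 (41.2 ± 35.6) and in VECs (53.1 ± 40.4), and had 22.2 ± 4.7 CPM per kb in adipocytes, where libraries ran from 16.8 through 25.0 to 38.8 CPM. Mx1, a GTPase gene, was near 0 in beige adipocytes (0.70 CPM) and had 34.3 ± 25.6 CPM in dendritic cells.

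By gene total, some members went the other way: Ddx58, Ifngr1 and Rtp4 had their highest mean in white adipocytes and Ifi27 in beige adipocytes. In white and beige nuclei together Ifi27 had the highest level per length of the members (43.4 ± 9.3 CPM per kb), with libraries from 56.2 through 82.6 to 137.0 CPM. Rtp4, a chaperone of membrane receptors, had 107.7 ± 15.9 CPM in adipocytes and 33.5 ± 14.3 CPM in B cells. These are totals over an annotated span (chr16:23520291-23614222) whose first peaks also count for Masp1. By this total, the highest B cell library (68.6 CPM) lay below the lowest adipocyte library (77.7 CPM). At the exonic peak nearest the end of the span (chr16:23609521-23610287), adipocytes had 14.0 CPM and B cells 15.5 CPM. Ddx58, which encodes the RNA sensor RIG-I, had 84.0 ± 14.1 CPM in adipocytes and 82.2 ± 55.7 CPM in CD4 T cells, a difference within the spread. Counting each member's highest type, VECs and dendritic cells led with 7 members each, then CD4 T cells (6), APC1 (5), white adipocytes, T cells outside CD4 and CD8, and CD8 T cells (3 each). B cells and macrophages led for 2 members each, beige adipocytes and APC2 for 1 each, and the VSMC-labelled cluster for 0. Median total counts per library were 23007 in VECs, 37871 in dendritic cells and 43362 in APC1, against 539047 in B cells. Means in the smaller types thus rest on few counts. The share of all genes highest in each type was not counted.

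At the low end of the adipocyte libraries stood Oas1a (mean 1.14 CPM, at 0 in 7 of 21 libraries), Oas3, Mx1, Oas2 (4.17 ± 4.37 CPM) and Ifit1 (6.97 ± 3.95 CPM), which are also the members with a peak that the count filter left out of the adipocyte fit. The remaining members had adipocyte means between 9.04 CPM (Oasl2) and 107.7 CPM (Rtp4). Isg15, a ubiquitin-like protein gene, had 13.7 ± 6.0 CPM there and was highest in CD4 T cells (67.9 CPM). Usp18, the protease that removes ISG15, had 39.9 ± 9.9 CPM there and was highest in dendritic cells (113.7 CPM). Ifih1, which encodes the RNA sensor MDA5, was highest in APC1 (119.3 CPM) and had 54.6 ± 9.8 CPM in adipocytes. Members of the OAS, IFIT, Mx and guanylate-binding protein families lie in clusters of similar genes, so a read that fits several copies may be missing from or misplaced between their peaks. A peak also counted for another gene was present in 8 members, among them Gbp2, Isg15, Stat2, Irf1, Irf9 and Rtp4.

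**Figure D2:**
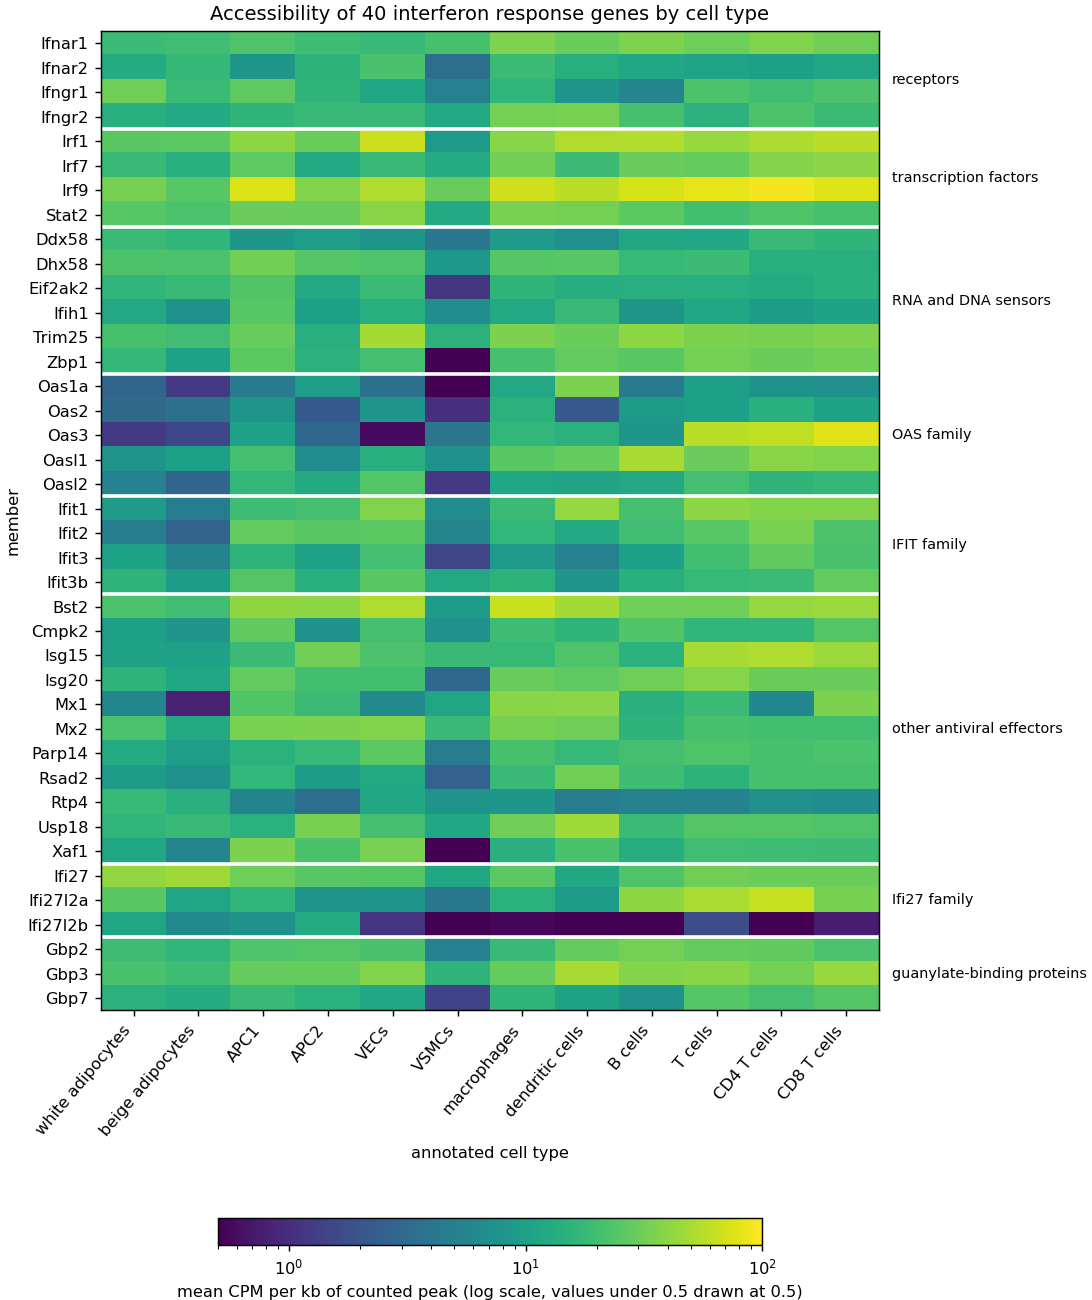
Mean accessibility of 40 members (rows, grouped by role) in 12 annotated cell types (columns), as CPM per kb of counted peak on a logarithmic colour scale from 0.5 to 100. Irf9 reaches 91.7 CPM per kb in CD4 T cells, and the row of Oas3 runs from 78.2 in CD8 T cells to 0.59 in VECs.

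The gene totals hid different peaks in different cells. In Ddx58, a peak over an exon 34360 bases from the start (chr4:40204822-40206114) had 55.9 CPM in adipocytes and at most 6.42 CPM in any other type. The promoter peak of Ddx58 (chr4:40238643-40240257) had 18.2 CPM in adipocytes and 56.8 CPM in CD4 T cells, so the similar gene totals came from different places. In Rtp4, intronic peaks 48346 and 86589 bases from the start had 32.1 and 27.3 CPM in adipocytes and at most 1.8 and 3.7 CPM elsewhere. An exonic peak of Rtp4 further on (chr16:23609521-23610287) was highest in VECs (57.3 CPM), with 26.8 CPM in CD4 T cells and 14.0 CPM in adipocytes. The peaks around the annotated start of Rtp4, also counted for Masp1, had 8.16 and 7.65 CPM in adipocytes. The higher adipocyte total of Rtp4 thus rested on intronic peaks, and their link to Rtp4 was not tested. The gene body peaks of Ifi27 at 3614 and 4603 bases had 26.2 and 15.2 CPM in adipocytes and at most 5.5 and 5.1 CPM elsewhere, whereas its promoter peak had 45.4 CPM in adipocytes and 56.9 CPM in CD4 T cells.

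The interferon gamma receptor genes also had peaks of different reach. The Ifngr1 intronic peak at 2466 bases was shared, with 49.8 CPM in adipocytes, 41.6 CPM in APC1 and 29.1 CPM in CD8 T cells. That at 11349 bases had 17.5 CPM in adipocytes and at most 7.4 CPM outside adipocytes, and that at 6321 bases had 31.2 CPM in CD4 T cells and 3.3 CPM in adipocytes. In Ifngr2, an intronic peak at 15228 bases (chr16:91561982-91562618) had 46.1 CPM in dendritic cells, 38.0 CPM in macrophages and at most 5.3 CPM elsewhere. The T cell level of Oas3 lay mainly in an intronic peak 1970 bases from the start (chr5:120775262-120776121), with 94.4 CPM in CD8 T cells and 1.3 CPM in adipocytes, while the peak over its start had 11.97 and 0.27 CPM. In Ifit2 the peak over the start was highest in CD4 T cells (85.5 CPM), and an intronic peak at 1402 bases was highest in APC1 (36.5 CPM).

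**Figure D3:**
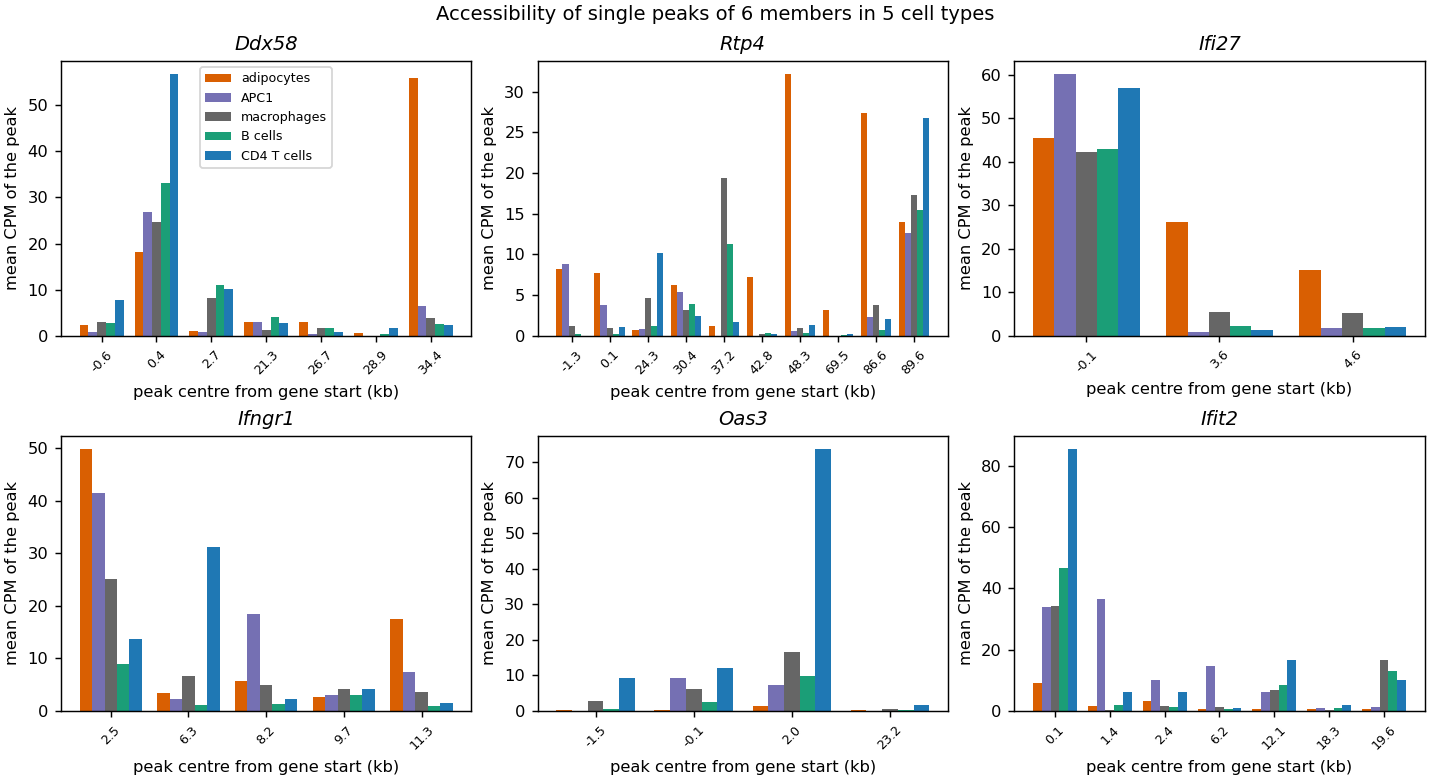
Mean accessibility (y axis, CPM) of each peak of Ddx58, Rtp4, Ifi27, Ifngr1, Oas3 and Ifit2, ordered by the distance of its centre from the gene start (x axis, kb), in adipocytes, APC1, macrophages, B cells and CD4 T cells (coloured bars). Distal peaks of Ddx58, Rtp4 and Ifi27 have their highest bars in adipocytes (55.9, 32.1 and 26.2 CPM), and Oas3 and Ifit2 have their highest bars in CD4 T cells (73.6 and 85.5 CPM).

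Beige adipocytes had lower levels of most members than white adipocytes of the same mouse. Over the 19 mice with both libraries, 32 of 40 members had a lower mean in beige nuclei, and the summed level was lower in beige in 16 of 19 mice. Over all libraries, 31 of 40 were lower in beige (77.5%, beside 51.9% of all genes with a peak). Ifngr1 had 83.5 ± 16.9 CPM in white and 49.4 ± 20.7 CPM in beige nuclei (SD, n = 19) and was lower in beige in 18 mice. Ifit3 was lower in beige in 17 mice (20.2 ± 4.2 against 9.8 ± 14.1 CPM) and Mx1 in 18 (3.8 ± 2.0 against 0.70 ± 2.1 CPM). Zbp1, a sensor of left-handed nucleic acid, was lower in beige in 16 mice and Ifi27l2a in 15 (23.4 ± 13.3 against 9.74 ± 7.63 CPM). Ifnar2 went the other way, at 90.2 ± 8.8 CPM in white and 127.0 ± 46.8 CPM in beige, higher in beige in 15 mice. The adipocyte classes were clustered on these accessibilities, and beige libraries were smaller (median 43 nuclei against 206), so no test is given. Median total counts per library were 108377 in beige and 581748 in white adipocytes. Beige libraries thus hold few counts of Ifit3, Mx1, Zbp1 and Ifi27l2a, and their tallies of mice can depend on library size. Mx1 had a median of 0 CPM in beige libraries of day 0 and of treated mice. Its tally therefore cannot separate a difference from low depth.

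Ifi27l2a (ENSMUSG00000079017.3, minus strand, chr12:103442167-103443680) has 1 peak, over its start (chr12:103443288-103444150). In adipocytes its 3 day0RT mice had 57.2, 38.6 and 35.8 CPM (28, 11 and 31 counts). The day1C mice had 28.2, 22.3 and 29.7 CPM, the day3C mice 20.6, 13.7 and 17.9 CPM and the day7C mice 9.6, 13.5 and 19.0 CPM. The day1CL mice had 0.0, 16.8 and 17.1 CPM, the day3CL mice 13.1, 13.7 and 16.8 CPM and the day7CL mice 13.4, 18.7 and 13.7 CPM. Every day 0 mouse lay above every treated mouse, and the day1C mice were the highest of the treated mice. That separation was found for 106 of 14430 genes tested in adipocytes (0.735%), Ifi27l2a being the only member; it chose the list, so nothing is read from it.

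The fitted difference of Ifi27l2a from day 0, given as a description, was -0.62 ± 0.26 on the log2 scale (SE) at day1C, -1.11 ± 0.23 at day3C and -1.44 ± 0.26 at day7C. It was -1.29 ± 0.30 at day1CL, -1.41 ± 0.24 at day3CL and -1.43 ± 0.24 at day7CL. In white nuclei alone, day 0 mice had 64.5, 40.9 and 37.1 CPM and treated mice 0.0 to 32.8 CPM. The peak was open in 70 of 637 adipocyte nuclei at day 0 (7.05 to 14.3% per mouse) and in 358 of 6367 treated nuclei (0 to 9.73%), with 2296 to 3842 entries per nucleus at day 0 and 2149 to 7983 after treatment. Over all libraries, this peak averaged 20.5 CPM in adipocytes. The mean was 35.3 CPM in B cells, 53.9 CPM in CD4 T cells and 29.2 CPM in CD8 T cells. At day 0 alone, the adipocyte mice overlapped the B and CD4 T cell mice and lay above the CD8 T cell mice. Lymphocyte marker sums in the adipocyte libraries had higher medians at day 0. The 5 B cell markers summed to 112 to 159 CPM at day 0 and 67.4 to 145.01 CPM after treatment (1318 CPM in B cells), and the 5 T cell markers to 73.9 to 90.0 and 50.2 to 84.3 CPM (1288 CPM in CD4 T cells). None of these 10 markers was at 0 in every adipocyte library, and the ranges of both lists overlapped between day 0 and treatment. Their part in the result was not tested.

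Across cell types Ifi27l2a was highest in CD4 T cells (53.9 ± 36.6 CPM, n = 20), followed by T cells outside CD4 and CD8 (44.4 ± 21.6), B cells (35.3 ± 6.0), CD8 T cells (29.2 ± 13.6), white adipocytes (22.1 ± 13.6) and APC1 (14.0 ± 16.2). Macrophages had 12.8 ± 16.9 CPM, beige adipocytes 9.7 ± 7.6 CPM and the remaining types less. Neighbours in this order did not differ beyond their spread. The highest single value, 191.3 CPM in day1CL replicate 3 of the CD4 T cells, rests on 2 counts in 16 nuclei. Of the other Ifi27 genes of the cluster on chromosome 12, Ifi27 had 106.9 ± 27.8 CPM in day 0 adipocytes (SD, n = 3) and treated group means of 69.2 to 107.5 CPM, and Ifi27l2b 7.7 ± 2.3 CPM and 5.9 to 15.4 CPM. The fitted log2 differences from day 0, as a description, were -0.38 to 0.08 for Ifi27 and 0.26 to 0.97 for Ifi27l2b, and the difference between the genes was not tested.

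**Figure D4:**
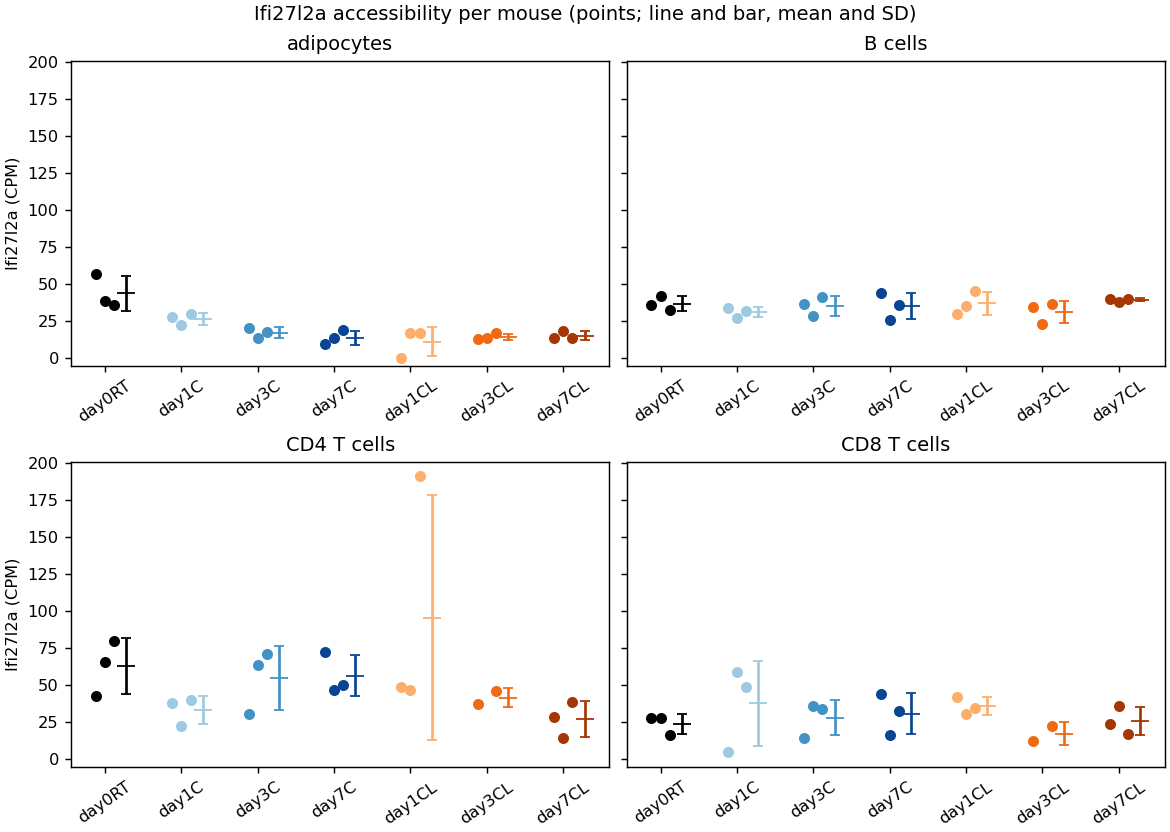
Accessibility of Ifi27l2a (y axis, CPM) in each mouse (points) with the mean and SD (line and bar), by group (x axis), in adipocytes, B cells, CD4 T cells and CD8 T cells. In adipocytes the day0RT mice (35.8 to 57.2 CPM) lie above all treated mice (0.0 to 29.7 CPM), and in B cells the groups overlap between 22.9 and 45.7 CPM.

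The other members in adipocytes are also described against day 0. Of 35 members tested, 2 were called in at least 1 of the 6 treated groups, Ifi27l2a and Irf1, beside 1723 of 14430 genes (11.9%); the rule used this contrast, and nothing is read from the count. Irf1 had 77.7, 59.7 and 62.4 CPM in day 0 adipocytes and 56.8, 36.0 and 46.5 CPM at day3CL, where the log2 difference was -0.63 ± 0.17. Its other treated groups had means of 30.4 to 59.96 CPM and overlapped day 0 except day7C (46.0, 40.4 and 53.2 CPM), day1CL (0.0, 50.5 and 40.7 CPM) and day3CL. The value of 0.0 comes from the library of 29 nuclei and 48870 counts. How many of all genes had no overlap between such groups was not counted. The median log2 difference of the 35 members ran from -0.16 at day7CL to 0.05 at day1CL, beside -0.01 to -0.0004 for all genes. Outside Ifi27l2a no member had its 3 day 0 mice above, or below, all treated mice. Of the 14430 genes tested, 106 had every day 0 mouse above every treated mouse, and 101 had every day 0 mouse below. Both patterns are rare, so nothing is read from their absence among the other members. The summed level of the members was 1564 ± 40.5 CPM at day 0 and 1419 to 1609 CPM in the means of the treated groups, with day1CL the most spread (1609 ± 279 CPM).

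**Figure D5:**
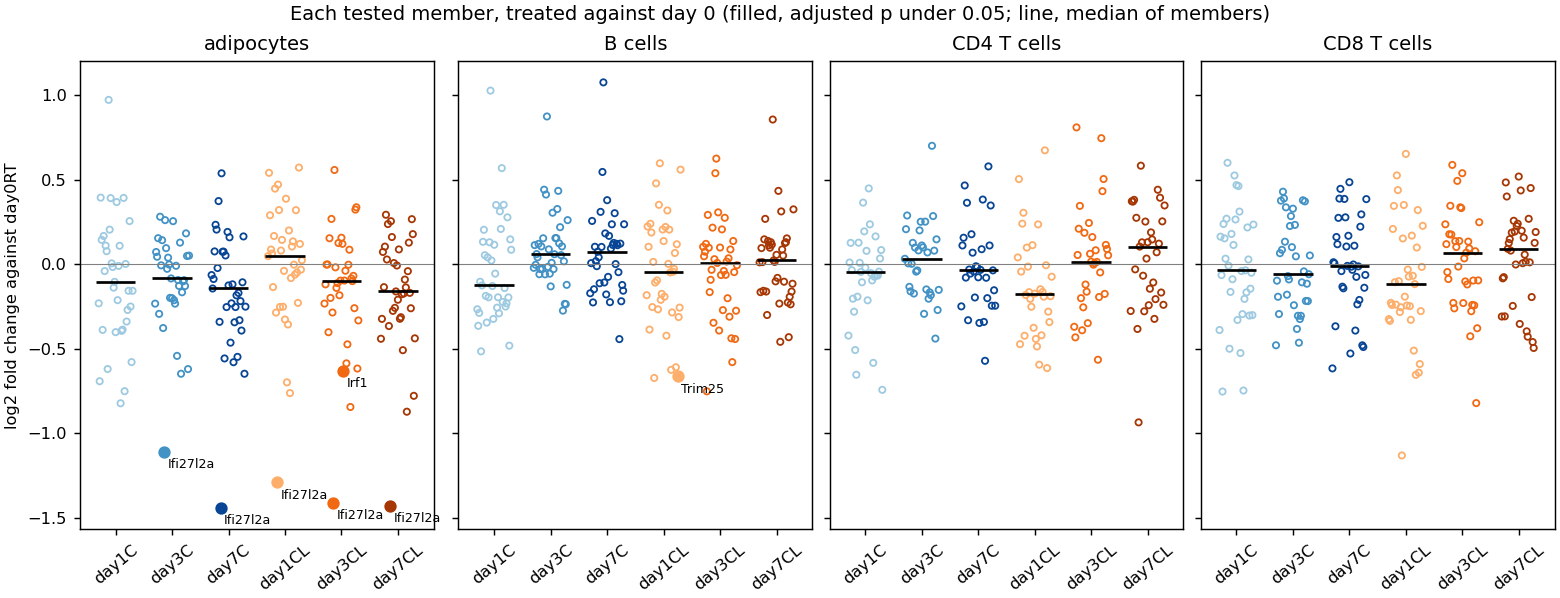
Log2 fold change against day0RT (y axis) of each tested member (points) in the 6 treated groups (x axis), in adipocytes, B cells, CD4 T cells and CD8 T cells; filled points have an adjusted p under 0.05 (edgeR) and black lines are medians. Ifi27l2a in adipocytes, from -0.62 to -1.44, stands apart by the choice of the list, and outside adipocytes Trim25 in day1CL B cells (-0.66) is the only filled point.

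Whether cold and CL differed in adipocytes was tested at matched days. The groups compared hold no day 0 mouse, but the count filter and the spread come from the fit of all 7 groups, day0RT included. None of the 35 members was called on any day (edgeR quasi-likelihood test, Benjamini-Hochberg over all genes), beside 340 of 14430 genes (2.36%), and 11 had an unadjusted p under 0.05. DESeq2 also called 0, with and without its independent filtering, a step that leaves low-count genes without an adjusted p. In all, 11.4% of the members' differences had such a p, beside 11.1% over all genes. Cmpk2, a mitochondrial nucleotide kinase gene next to Rsad2, had the largest difference at day 1, with 8.3, 12.4 and 9.3 CPM in day1C mice and 40.9, 5.6 and 27.1 CPM in day1CL mice. The CL values rest on 2, 1 and 38 counts, and the log2 difference of 1.23 ± 0.36 had an adjusted p of 0.0756 in edgeR. It was 1.37, just past the threshold, without day1CL replicate 2 and 0.38 (adjusted p = 0.964) without day1CL replicate 3. Irf1 had 54.3, 60.9 and 64.8 CPM in day3C mice and 56.8, 36.0 and 46.5 CPM in day3CL mice, a log2 difference of -0.42 ± 0.13 (adjusted p = 0.0971). It passed the threshold without day3CL replicate 1 (-0.48, adjusted p = 0.0471) and in white nuclei alone (-0.50, adjusted p = 0.0262), and was -0.22 (adjusted p = 0.832) without day3CL replicate 2. Ifngr1 at day 3 differed by 0.36 (adjusted p = 0.141). For Ifi27l2a the CL minus cold log2 difference was -0.67 ± 0.32 at day 1, -0.30 ± 0.21 at day 3 and 0.01 ± 0.29 at day 7, given without a test because treated adipocytes chose it.

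B cells had the highest median total count of the immune classes, though few entries per nucleus (median 1054), and 37 members could be tested against day 0 in them. Trim25, a ubiquitin ligase that activates RIG-I, was the only member called by edgeR, beside 417 of 11503 genes (3.63%). An unadjusted p under 0.05 was found for 11 members, in 7.21% of their contrasts beside 10.3% over all genes. For Trim25, the day 0 mice had 87.6, 103.5 and 93.7 CPM and its day1CL mice 53.9, 66.8 and 0.0 CPM, so the groups did not overlap and Trim25 fell by 0.66 ± 0.20 on the log2 scale (edgeR adjusted p = 0.0445). How many of all genes had no overlap between these groups was not counted. The value of 0.0 comes from the library of 66 nuclei and 43731 counts. Trim25 means in the other 5 treated groups were 76.0 to 86.1 CPM, with log2 differences of -0.05 to -0.24 that were not called. The call was lost under 7 of 10 other settings, DESeq2 among them (adjusted p = 0.342), and without any 1 of the 6 day0RT and day1CL mice. Over all 31 alternatives the adjusted p ran from 0.0270 to 0.638, and in nuclei with at least 1000 entries the log2 difference was -0.37.

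Ifit3b showed the largest difference in B cells that was not called. It had 14.4, 9.4 and 10.9 CPM at day 0, 27.9, 32.1 and 24.2 CPM at day1C, 40.0, 16.2 and 20.6 CPM at day3C and 25.4, 32.4 and 30.0 CPM at day7C. The CL groups had 19.4, 22.3 and 0.0 CPM at day 1, 21.2, 22.9 and 19.4 CPM at day 3 and 21.3, 26.2 and 28.7 CPM at day 7. Thus 17 of the 18 treated mice lay above all day 0 mice. Every day 0 mouse lay below every treated mouse for 14 of 11503 genes in B cells (0.122%) and 0 members. The share of genes with the looser pattern of Ifit3b was not counted. The log2 differences were 1.03 ± 0.33 at day1C (edgeR adjusted p = 0.139) and 1.08 ± 0.29 at day7C (adjusted p = 0.120). Day 0 rested on 4 to 14 counts a mouse. Ifi27l2a itself was not called in B cells, with 36.1, 42.4 and 32.7 CPM at day 0, treated mice between 22.9 and 45.7 CPM, and log2 differences of -0.19 to 0.14 (lowest adjusted p = 0.845).

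In T cells and macrophages no member was called. CD4 T cells had 31 members tested and 0 called, beside 11 of 9618 genes (0.114%), with 5 members at an unadjusted p under 0.05 (4.84% of their contrasts, beside 7.13% over all genes). CD8 T cells had 35 tested and 0 called, beside 24 of 10376 genes (0.231%), with 15 at an unadjusted p under 0.05 (11.9% of their contrasts, beside 7.59% over all genes). Macrophages had 5 tested (Bst2, Dhx58, Ifnar1, Ifnar2 and Ifngr2) and 0 called, beside 3 of 3599 genes (0.0834%), with 1 (Bst2) at an unadjusted p under 0.05 (3.33% of contrasts, beside 5.00%). DESeq2 called 0 members in each of the 3, with and without independent filtering. Ifi27l2a in CD4 T cells had 42.9, 65.8 and 80.3 CPM at day 0 and 28.9, 14.4 and 38.9 CPM at day7CL, groups that did not overlap, with a log2 difference of -0.93 ± 0.31 (edgeR adjusted p = 0.272). The share of all genes without overlap between these groups was not counted. In CD8 T cells its day 0 mice had 28.1, 28.1 and 16.3 CPM and treated mice 5.1 to 59.3 CPM.

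In CD8 T cells, Ifit3b had 50.1, 46.8 and 44.3 CPM at day 0 and 17.6, 20.5 and 0.0 CPM at day1CL, without overlap, at a log2 difference of -1.13 ± 0.37 (edgeR adjusted p = 0.138). A share of all genes without such overlap was not counted. In the other treated groups the means of Ifit3b were 43.9 to 57.8 CPM. Ifngr2 had 64.2, 89.0 and 93.2 CPM at day 0 and 105.9, 153.5 and 209.2 CPM at day1CL, a log2 difference of 0.65 (adjusted p = 0.161), and its treated CD8 libraries ran from 87.3 to 209.2 CPM. The day1CL replicate 3 library gave 0 counts for Ifit3b and 6 for Ifngr2. With only nuclei of at least 1000 entries, the difference of Ifit3b was -0.62 (adjusted p = 0.728).

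Other genes of the pathway were examined as further lists. In adipocytes against day 0, the 30 tested of 38 other interferon-stimulated genes had 0 calls, beside 11.9% of all genes, and 8 with an unadjusted p under 0.05 (8.33% of the list's contrasts, beside 16.6% over all genes). There were also 0 calls among 10 nucleic acid sensors and adaptors (1.67% of contrasts with such a p) and 8 genes of Janus kinases and their inhibitors (4.17%). Of 13 genes of MHC class I presentation, 3 were called, all of them lower, beside 11.9% of all genes called in either direction. The share of all genes called lower was not counted. They were Erap1, which trims peptides, lower by 0.61 ± 0.16 at day3C, B2m, the light chain, by 0.61 ± 0.17 at day7C, and Tap1, the peptide transporter, by 0.58 ± 0.18 at day7CL (edgeR adjusted p = 0.0280, 0.0166 and 0.0337). The calls of these genes and of Irgm2 against day 0 come from the comparison that chose Ifi27l2a and are given as a description. No call of these further lists was followed under the other settings. The median log2 difference of these 13 genes ran from -0.38 to -0.10 over the 6 groups, beside -0.01 to -0.0004 for all genes, and 37.2% of their contrasts had an unadjusted p under 0.05. The B cell and T cell marker sums of these same libraries (112 to 159 and 73.9 to 90.0 CPM at day 0, 67.4 to 145.01 and 50.2 to 84.3 CPM after treatment) also had lower medians after treatment, with overlapping ranges, and their part in this was not tested. Of 9 tested interferon-inducible GTPases, Irgm2, which guards against vacuolar pathogens, was the 1 called and rose at day3C by 0.71 ± 0.19 (adjusted p = 0.0265; 18.5% of the list's contrasts had an unadjusted p under 0.05) and was lower at day3CL than at day3C by 0.46 on the log2 scale (log2 -0.46 ± 0.13, adjusted p = 0.0342). In B, CD4 and CD8 T cells and macrophages no gene of these lists was called, and none of the 6 interferon genes passed the count filter in adipocytes, B cells, CD4 and CD8 T cells or macrophages.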

How the data were processed

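The authors prepared nuclei from whole iWAT and made single-nucleus ATAC-seq libraries by combinatorial indexing. Per their methods, reads were aligned to mm10 with Bowtie2, duplicates and mitochondrial reads were removed, nuclei of low depth or likely doublets were dropped, peaks were called with MACS2 in clusters of nuclei and merged, and nuclei were clustered with Signac and Seurat. The deposited matrix holds counts as whole-number entries of 0 or 1 for 189598 peaks in 32552 nuclei, with 65588856 entries of 1, so it records whether a peak was open and not how many reads fell in it. Mouse, group and cell type come from the deposited annotation of the nuclei. The 4 GEO samples are lanes that pool all mice and were not compared.

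From these, entries were summed per gene (GENCODE vM21 gene body and 2000 bases upstream), mouse and cell type. Libraries under 10 nuclei were left out. Total counts per library, which set the precision, are in the report. The main test was the two-sided quasi-likelihood test of edgeR 4.0.16 in R 4.3.3, with all 7 groups in 1 fit, TMM factors and filterByExpr (minimum count 10). Calls are at a Benjamini-Hochberg adjusted p under 0.05, taken over every gene of a contrast. Standard errors are of the log2 difference (prior count 2). Python 3.11.15, pandas 2.3.3 and numpy 2.4.6 were used for sums, levels and letters. Scripts were tested on simulated data.

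The members and all lists were chosen with earlier results of these data known, and the adipocyte comparison with day 0 chose Ifi27l2a. The rule for values in full was Ifi27l2a, members called in a tested comparison and the 2 members of highest level per kb in 6 cell types. Other members with values (among them Cmpk2, Ifit3b, Ifngr2, Oas3, Ifit2, Rtp4 and Ddx58) were chosen after their values were seen. Alternatives were DESeq2 1.42.0, its size factors, no count filter, promoter peaks only, peaks of 1 gene only, only the 2 groups compared, a replicate block, at least 30 nuclei or 1000 entries, white nuclei only, and leaving out each mouse. DESeq2 without independent filtering and the mean over treated groups were added after seeing the data.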

Additional observations from a re-analysis of the deposited data

How the results depend on the processing

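The 2 members called in adipocytes against day 0 (Ifi27l2a and Irf1) became 0 with DESeq2. It gave no adjusted p for 21 of the 35, Ifi27l2a among them, so those could not be called. Without independent filtering DESeq2 called 1 (Ifi27l2a). The count was 1 with the mean over the treated groups and 3 with promoter peaks only. The mean over the treated groups and DESeq2 without independent filtering were added after seeing the data. Leaving out 1 mouse gave 1 or 2, with 1 without day0RT replicate 1 and without day3CL replicate 2. For CL against cold, 0 became 1 (Irf1) in white nuclei only, and leaving out 1 mouse gave 0 or 1. The 1 call in B cells became 0 with DESeq2, with and without independent filtering, with its size factors, with promoter peaks only, with only the 2 groups compared, with nuclei of at least 1000 entries and with the mean over the treated groups, and it was 0 or 1 when 1 mouse was left out. In CD4 and CD8 T cells and macrophages the count was 0 under every alternative run. Apart from the missing adjusted p values, the cause of these changes was not tested.

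With the replicate block, adipocytes had 2 calls against day 0, B cells 0 and the other comparisons 0. No pairing of mice by replicate number was seen: the correlations of same-numbered deviations lay between -0.14 and 0.12. The paper reports batches that were run independently and does not tie them to replicate numbers. These correlations do not test for a batch.

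The Ifi27l2a difference between CL and cold at day 7, 0.01, changed sign to -0.000812 with peaks of 1 gene only and to -0.0867 in white nuclei, and ran from -0.18 to 0.34 when 1 mouse was left out. Over all genes DESeq2 called 515 in adipocytes against day 0, 28 for CL against cold and 37 in B cells, beside 1723, 340 and 417 with edgeR, and promoter peaks only gave 279, 97 and 45. In CD4 T cells, CD8 T cells and macrophages DESeq2 called 1, 1 and 0 genes, beside 11, 24 and 3. Without day0RT replicate 1 the first count was 1046 and that of B cells 152. The mean over the treated groups gave 605 in adipocytes and 84 in B cells, and nuclei of at least 1000 entries 101 in B cells. Members lower in adipocytes than in CD4 T cells numbered 29 or 30, and those lower in beige than in white adipocytes 30 to 33, over 25 alternatives each. The count filter limits what could be tested: 35 of the 41 members entered the fit in adipocytes and 5 in macrophages, and Ifi44 has no peak.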
